A study of Mus musculus with 39 samples.

Results

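Dendritic cells (DC) of lymph nodes that held transferred OT cells were compared 12 h after immunization with nanoparticles that carried either ovalbumin (OVA) or bovine serum albumin (BSA). The libraries were chosen by their labels, with earlier results of these data known. Of the 39 libraries of the series 4 belonged: OVA with OT replicates 1 and 2, and BSA with OT replicates 1 and 3. All 4 came from wild-type C57BL/6 mice aged 8 to 12 weeks that were immunized under the skin of the hock, and the DC of popliteal and inguinal nodes were isolated by negative selection followed by cell sorting. The series description names OT-I and OT-II as the engrafted T cells, whose receptors recognize peptides of OVA, and particles with OVA, the adjuvant CpG and a rhodamine dye. The labels of these 4 libraries say only OT, and they do not say what the BSA particles held besides BSA. Within the group labels the 2 groups thus differed in the antigen, which OT cells can recognize in one group and not in the other. The same experiment holds 2 libraries of wild-type DC after OVA without OT cells and 2 of Cd80/86 -/- DC after OVA with OT cells, and these 4 were used for the spread of each gene and as levels to set beside the others. The question was how DC differ after 12 h in a node where engrafted T cells can recognize the antigen on them. Nothing in the labels says whether replicates came from separate mice, and p-values here therefore reflect only how far these libraries spread, which may be technical.

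DC take up antigen, cut it with endosomal proteases and present the peptides on MHC molecules to T cells. CpG is sensed by Toll-like receptor 9 in endosomes and leads to type I interferon, to interferon-stimulated genes and to maturation, in which DC raise CCR7 and costimulatory ligands. Conventional DC of type 1 and type 2 present antigen to CD8 and CD4 T cells respectively, while plasmacytoid DC are known for making interferon. A T cell that recognizes its peptide can in turn act on the DC through CD40 ligand and interferon-gamma. Cathepsin E (Ctse) is an aspartic protease of the endosome, XAF1 (Xaf1) is an interferon-induced protein that binds an inhibitor of apoptosis, and Siglec-H (Siglech) is a surface receptor by which mouse plasmacytoid DC are recognized.

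The total count was 628404 and 848218 in the BSA libraries and 1312940 and 798777 in the OVA libraries, and levels below are counts per 1000000 of a library's total (CPM). Defining DC markers were present in all 4 libraries: Flt3, the receptor of the main DC growth factor, lay between 173 and 260 CPM, H2-Ab1 between 2714 and 6926 CPM and Cd74 between 4398 and 9593 CPM. Zbtb46, a transcription factor of conventional DC, was low, at 18.8 to 27.1 CPM. Of the B cell markers, Cd79a had no count in any of the 4 libraries. The BSA libraries stood apart from each other more than any other pair. Among 8306 genes whose mean reached 10 CPM, 1691 (20.4%) differed at least 2-fold between BSA replicates 1 and 3, on log2(CPM + 1) values centred on their median, against 534 (6.43%) between the OVA libraries, 973 (11.7%) between the libraries without OT cells and 435 (5.24%) between those of the knockout. List medians are therefore given also without BSA replicate 1 and without BSA replicate 3, each over the members tested in that fit.

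The gap between the BSA libraries ran along cell types. Markers of plasmacytoid DC summed to 3378 CPM in BSA replicate 1 and 13030 CPM in BSA replicate 3, with 4853 and 4275 CPM in the OVA libraries. Of the 24 markers in that list 22 were highest in BSA replicate 3 among the 4 libraries. B cell markers summed to 27.1 and 253 CPM in BSA replicates 1 and 3 and to 30.5 and 25.0 CPM after OVA. Erythrocyte and platelet markers, mostly haemoglobin, summed to 12782 CPM in BSA replicate 1, 97.9 CPM in BSA replicate 3, and 6348 and 15191 CPM after OVA. Genes of maturation and migration were also higher in BSA replicate 1, at 25299 CPM, than in BSA replicate 3, at 11709 CPM, with 21261 and 17793 CPM after OVA. In these 4 lists BSA replicate 1 was thus nearer to the OVA libraries than BSA replicate 3 was. After OVA without OT cells plasmacytoid DC markers summed to 12763 and 11253 CPM, and in the knockout to 10990 and 8674 CPM. These lay nearer to BSA replicate 3. Erythrocyte and platelet markers summed to 5283 and 8849 CPM without OT cells and to 48.0 and 123 CPM in the knockout. In the same order maturation genes were at 6170, 8459, 9460 and 11098 CPM and B cell markers at 163, 242, 81.9 and 90.8 CPM. The part that the gap between the BSA libraries played in the results was not tested beyond leaving out each library.

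**Figure D1:**
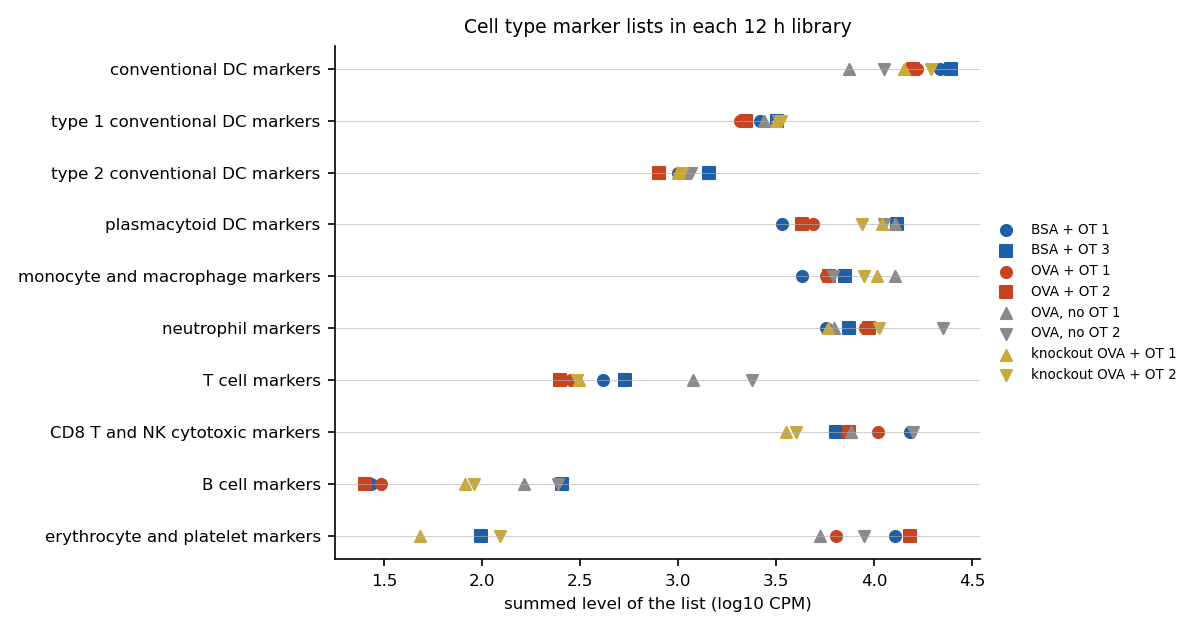
Summed level of 10 cell type marker lists (log10 CPM, horizontal axis) in each of the 8 libraries of the experiment, 1 symbol a library. BSA replicate 3 (blue squares) lies apart from BSA replicate 1 (blue circles) in plasmacytoid DC markers, at 13030 against 3378 CPM, and in erythrocyte and platelet markers, at 97.9 against 12782 CPM.

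One gene passed the test. Cathepsin E fell, from 62.1 and 76.6 CPM after BSA (39 and 65 counts) to 3.05 and 3.76 CPM after OVA (4 and 3 counts). The mean was 69.3 ± 10.3 CPM (SD, n = 2) after BSA and 3.40 ± 0.501 CPM (SD, n = 2) after OVA, and the libraries did not overlap. The difference was -4.26 on the log2 scale with a standard error of 0.40 (adjusted p = 0.0042, edgeR quasi-likelihood test). No gene rose. Of 9355 genes tested this 1 call is 0.0107%, all of it lower, and the share called higher is 0%. At an unadjusted p under 0.05 there were 850 genes (9.09%), 401 of them higher (4.29%) and 449 lower (4.8%), and DESeq2 called 11 genes, 4 higher and 7 lower, of 11103 with an adjusted p (0.0991%). The call for Ctse held without BSA replicate 1 (-4.27, adjusted p = 0.00077) and without BSA replicate 3 (-4.19, adjusted p = 0.014). It was lost without OVA replicate 1 (-4.05, adjusted p = 0.45) and without OVA replicate 2 (-4.36, adjusted p = 0.14), where 1 OVA library remained. Leaving out either BSA library leaves 1 in that group, so the calls of those fits are not counted over the lists below.

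**Figure D2:**
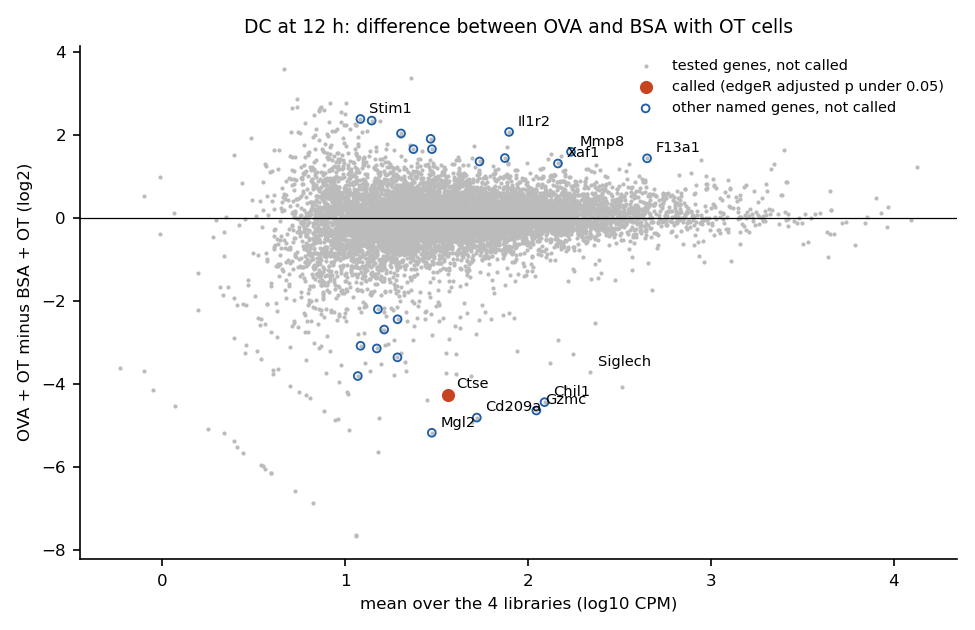
Log2 difference between OVA with OT and BSA with OT (vertical axis) against the mean level over the 4 libraries (log10 CPM, horizontal axis) for 9355 genes. Ctse, the filled red point at -4.26, is the 1 gene called, and open blue circles mark the other named genes.

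The level of cathepsin E in the remaining groups of the experiment was 66.6 and 90.2 CPM after OVA without OT cells and 3.53 and 4.97 CPM in Cd80/86 -/- DC after OVA with OT cells. Both groups with OVA and OT cells, wild type and knockout, were thus low, and the groups that lacked either OVA or OT cells were high. The difference between OVA with and without OT cells, which shares the OVA with OT libraries with the main comparison, was -4.44 ± 0.39 (SE, adjusted p = 0.0021, edgeR, where 2.6% of genes were called, 1.27% higher and 1.33% lower). In the 25 DC libraries of the time course and of the 5-replicate experiment, whose labels do not say whether the mice held OT cells, Ctse lay between 0.757 and 20.5 CPM. All 25 were below the 4 high libraries of the 12 h experiment. At 20 h the level after BSA was 0.757 CPM at the lowest, 8.02 at the median and 12.7 at the highest, and after OVA 1.28, 3.54 and 13.4 CPM. These 20 h groups overlapped, with a log2 difference of -0.46 ± 0.59 (SE, adjusted p = 0.94, edgeR). In the time course at 12 h Ctse was 5.63 and 7.46 CPM after CpG-only particles and 13.8 and 20.4 CPM after OVA particles, a difference of 1.37 ± 0.60 (SE, adjusted p = 0.35, edgeR). Whether the differences at 12 h with OT cells and at 20 h differ from each other was not tested.

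**Figure D3:**
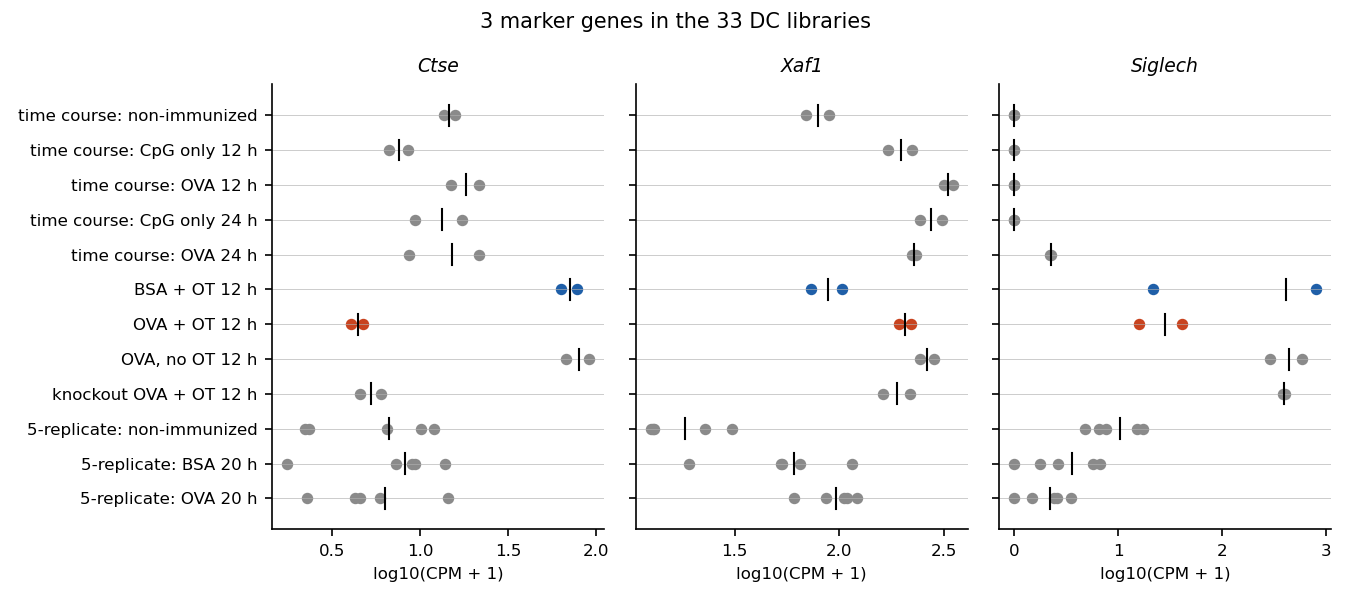
Level of Ctse, Xaf1 and Siglech (log10(CPM + 1), horizontal axis) in each of the 33 DC libraries by group, with the mean as a vertical bar and the compared groups in blue (BSA with OT) and red (OVA with OT). Ctse is high only in BSA with OT (62.1 and 76.6 CPM) and OVA without OT (66.6 and 90.2 CPM), and Siglech is spread from 20.7 to 799 CPM within BSA with OT.

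Beyond cathepsin E, the 11 genes of smallest p among those lower after OVA and with a mean of 10 CPM or more are named here. By edgeR none of them was called (adjusted p 0.17 to 0.44). DESeq2 called Gzmc, Cd209a, Mgl2 and Il2rb, with adjusted p of 6.2e-08, 0.00085, 0.0015 and 0.023, and none of the others. In all 11 the 4 libraries did not overlap, as was true of 1856 of the genes tested in this direction (19.8%). They include receptors and enzymes of myeloid cells. Mgl2, a galactose-binding lectin of type 2 conventional DC, was 71.6 and 44.8 CPM after BSA and 1.52 and 1.25 CPM after OVA (2 and 1 counts), a log2 difference of -5.18 ± 0.77 (SE, adjusted p = 0.17). Cd209a, a lectin related to DC-SIGN, was 12.7 and 191 CPM after BSA and 3.81 and 2.50 CPM after OVA, so that its difference of -4.81 ± 1.04 was set mostly by BSA replicate 3 and was -1.93 without that library. Chil1, a secreted chitinase-like protein, was 339 and 134 CPM after BSA and 14.5 and 5.01 CPM after OVA (-4.44 ± 0.77, adjusted p = 0.25). Slamf9, a SLAM family receptor, was 17.5 and 48.3 CPM after BSA and 5.33 and 6.26 CPM after OVA. Both OVA libraries lay under 15 CPM for each of these 4 genes.

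Several of the other genes in that set are best known from lymphocytes. Gzmc, granzyme C, a serine protease of cytotoxic lymphocytes, was 258 and 172 CPM after BSA and 12.2 and 2.50 CPM after OVA (-4.64 ± 0.75, adjusted p = 0.23). Lat, the adaptor that carries the T cell receptor signal, was 11.1 and 33.01 CPM after BSA and 1.52 and 1.25 CPM after OVA. Lck, the kinase of the same pathway, was 22.3 and 28.3 CPM after BSA and 6.09 and 3.76 CPM after OVA. Il2rb, the chain that the receptors of interleukin-2 and interleukin-15 share, was 36.6 and 35.4 CPM after BSA and 5.33 and 0 CPM after OVA (7 and 0 counts). The BSA libraries were close for Lck and Il2rb and further apart for Lat, and each of the 4 genes kept a log2 difference of -2.10 or lower without BSA replicate 1 and without BSA replicate 3. Ets1, a transcription factor of lymphocytes, Ablim1, an actin-binding protein, and Traf4, a signalling adaptor, lay between 14.3 and 40.1 CPM after BSA and between 2.28 and 5.33 CPM after OVA.

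The levels of some of these genes in the other groups of the experiment are set beside those above. The 12 genes were chosen for low values in the OVA with OT libraries, which a comparison with the group without OT cells shares, so no agreement between the comparisons is read from them. Chil1 was 693 and 286 CPM without OT cells and 1.41 and 11.2 CPM in the knockout. Il2rb was 86.3 and 226 CPM without OT cells and 4.94 and 2.49 CPM in the knockout. In the knockout Slamf9 was 41.6 and 31.1 CPM and Cd209a 45.2 and 36.1 CPM, above both wild-type OVA with OT libraries. In the independent libraries at 20 h 8 of the 12 were tested, 5 were lower after OVA than after BSA and none was called. In OVA against CpG only at 12 h 8 were tested, 1 was lower and none was called.

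T cell markers were low in all 4 libraries. Of the 24 markers of the list 22 were among the deposited genes, and they summed to 411 and 535 CPM after BSA and to 283 and 249 CPM after OVA. Of the 18 that passed the filter on low counts, 13 (72.2%) were lower without overlap, beside 19.8% of all genes tested, and none was higher without overlap. The median log2 difference was -2.52, or -2.29 with the 4 genes at 0 in the OVA group set at a floor of 3 counts over the group. It was -2.72 without BSA replicate 1 and -1.98 without BSA replicate 3. With all libraries none was called. Cd3e, a subunit of the T cell receptor complex, had 1 and 12 counts after BSA and 0 in both OVA libraries, which makes it at least 6.20-fold lower. Cd3g had 3 and 8 counts after BSA and 0 after OVA, at least 5.24-fold lower. Thy1, a surface protein of T cells, was 43.0 and 62.5 CPM after BSA and 7.62 and 17.5 CPM after OVA (-2.06 ± 0.49). Without OT cells the same 22 markers summed to 1188 and 2366 CPM, and in the knockout to 310.5 and 303 CPM. In sorted bulk samples fewer cells of a type and less RNA per cell cannot be told apart. Floors cover counting error only.

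Markers of cytotoxic lymphocytes had less order. Their sum was 15177 and 6382 CPM after BSA and 10392 and 7401 CPM after OVA, and so overlapped. Of 18 tested, 8 (44.4%) were lower without overlap, beside 19.8% of all genes, and none higher. The median log2 difference was -0.93, or -0.73 with the 1 gene at 0 set at its floor, and -0.83 and -0.70 without BSA replicates 1 and 3. None was called with all libraries in the fit. Ncr1, a receptor that defines natural killer cells, was 7.96 and 10.6 CPM after BSA and 1.52 and 0 CPM after OVA. Klrb1c, the other defining marker of those cells, was 3.18 and 7.07 CPM after BSA and 4.57 and 0 CPM after OVA. The part of these cells in the lower Gzmc, Il2rb, Lat and Lck was not tested. Ctsw, a protease of cytotoxic lymphocytes that stands beside Ctse in the list of cathepsins, was 33.4 and 112 CPM after BSA and 15.2 and 10.0 CPM after OVA (-2.40 ± 0.61, adjusted p = 0.45).

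The 12 genes of smallest p among those higher after OVA also had libraries that did not overlap, as had 1508 of the genes tested (16.1%), and none was called (adjusted p 0.23 to 0.45). Il1r2, a decoy receptor that binds interleukin-1 without signalling, was 41.4 and 22.4 CPM after BSA and 123 and 129 CPM after OVA, a log2 difference of 2.07 ± 0.35 (SE, adjusted p = 0.23). Mmp8, the collagenase of neutrophil granules, was 87.5 and 90.8 CPM after BSA and 222 and 288 CPM after OVA (1.60 ± 0.29, adjusted p = 0.31). F13a1, the A chain of clotting factor XIII made by monocytes and macrophages, was 266 and 237 CPM after BSA and 574 and 717 CPM after OVA (1.44 ± 0.33). DESeq2 called these 3, with adjusted p of 0.0063, 0.012 and 0.036, and also Gm1966, chosen after its values were seen. The BSA libraries agreed closely for Mmp8 and F13a1.

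Smaller genes of this set differed in function. Stim1, the sensor of calcium in the endoplasmic reticulum, was 3.18 and 4.72 CPM after BSA and 20.6 and 20.0 CPM after OVA (2.39 ± 0.52), the largest difference of the 12. Dmkn, the secreted protein dermokine, was 12.7 and 12.97 CPM after BSA and 44.2 and 47.6 CPM after OVA. Gpld1, a phospholipase that releases anchored proteins, was 9.55 and 7.07 CPM after BSA and 30.5 and 33.8 CPM after OVA. Col27a1, a fibrillar collagen, was 50.9 and 33.01 CPM after BSA and 101 and 114 CPM after OVA, and Birc6, a large inhibitor of apoptosis, 30.2 and 33.01 against 77.7 and 76.4 CPM. Cenpm, a centromere protein, Tmem258, a subunit of the complex that adds sugars to new proteins, and Pira1, an activating receptor with near-identical family members among which reads could be split, had differences of 1.66, 1.66 and 2.35. Il1r2 was 117 and 125 CPM after OVA without OT cells, at the level of OVA with OT cells and above BSA with OT cells. Col27a1 was 11.1 and 14.8 CPM without OT cells, below every library with them.

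**Figure D4:**
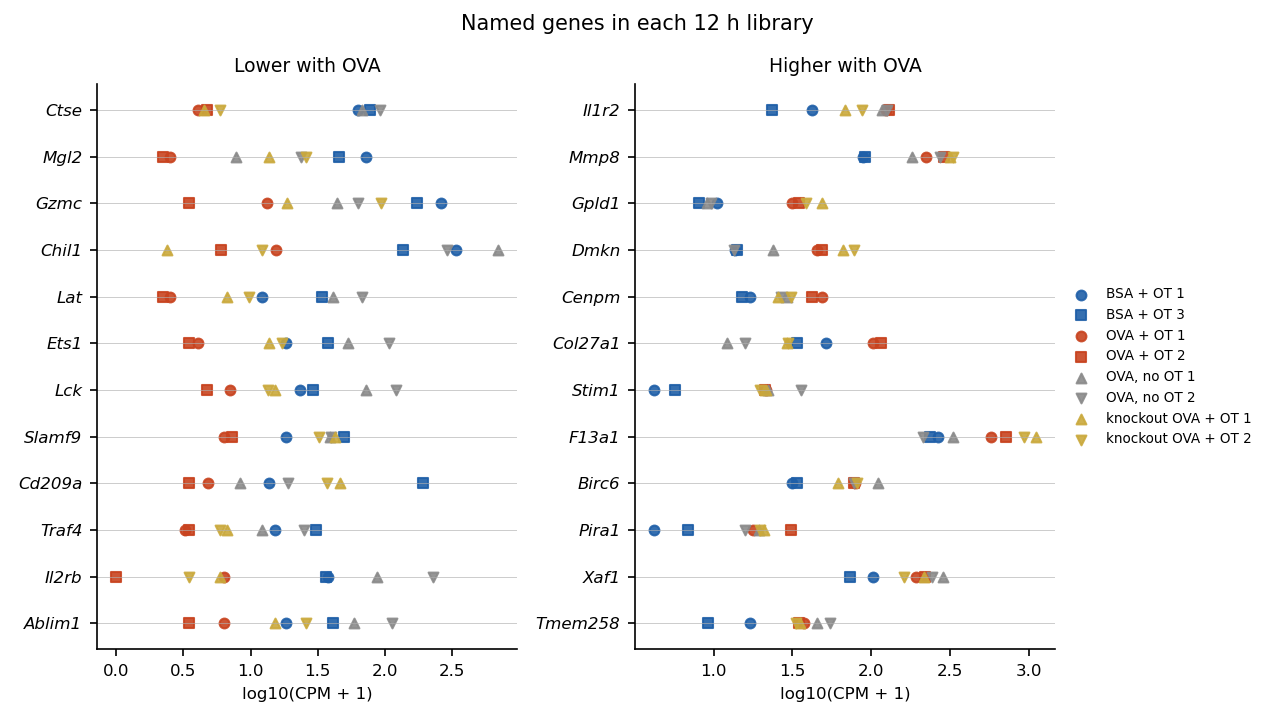
Level of the 12 genes lower and the 12 genes higher after OVA (log10(CPM + 1), horizontal axis), 1 symbol a library: BSA with OT blue, OVA with OT red, OVA without OT grey, Cd80/86 -/- with OVA and OT yellow. Blue and red symbols do not overlap in any of the 24, which were picked by p in these same libraries. Of all genes tested 19.8% were lower and 16.1% higher without overlap. For Ctse, Chil1 and Il2rb yellow lies with red, and for Slamf9 and Cd209a yellow lies above red.

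Xaf1, the last but one of the 12, belongs to the genes that type I interferon induces, and these were mostly higher after OVA. Xaf1 was 102 and 71.9 CPM after BSA and 192 and 218 CPM after OVA, a log2 difference of 1.31 ± 0.32 (SE, adjusted p = 0.45, edgeR). Of the 45 interferon-stimulated genes of the list, all tested, 42 had a difference above 0 and 27 (60.0%) were higher without overlap, beside 16.1% of all genes tested. At an unadjusted p under 0.05 11 were higher, where 4.29% of all genes were. None was called. The median log2 difference was 0.55, beside 0.01 over all genes. It was 0.93 without BSA replicate 1 and 0.26 without BSA replicate 3. The summed level was 24529 and 20705 CPM after BSA and 28095 and 29271 CPM after OVA.

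Among single members, Oas1b and Oas1g, of the synthetases that activate RNase L, were 27.1 and 18.9 CPM and 62.1 and 55.4 CPM after BSA, and 48.0 and 58.8 CPM and 107 and 170 CPM after OVA. Their copies are similar enough that reads could be split between them. Herc6, a ligase of the ubiquitin-like protein ISG15, was 121 and 94.3 CPM after BSA and 228 and 197 CPM after OVA (1.06 ± 0.34). Ifit1, which binds viral RNA, was 780 and 211 CPM after BSA and 1071 and 1457 CPM after OVA, and Mx2, an antiviral GTPase, 121 and 93.1 against 176 and 195 CPM. These members were higher in both OVA libraries, with Ifit1 far apart between the BSA libraries. Bst2, a tether of viral particles that plasmacytoid DC carry at high level, went the other way at 856 and 2696 CPM after BSA and 798 and 785 CPM after OVA. Irf7, the factor that drives interferon transcription, was 1424 and 1490 CPM after BSA and 1418 and 1282 CPM after OVA, with a difference of -0.03. The same 45 genes summed to 50440 and 31491 CPM after OVA without OT cells and to 46025 and 32404 CPM in the knockout, so wild-type DC with OVA and OT cells were the lower of the 3 groups given OVA.

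The starts of these genes are shown for the members of smallest p for which the RefSeq table of promoters (build GRCm38.p6) has an entry, Xaf1, Oas1g and Herc6, with Oas1b not in the table. Each runs from 250 bases before to 30 bases after the start on the gene's own strand, at chr11:72301379-72301658 (plus), chr5:120887584-120887863 (minus) and chr6:57580742-57581021 (plus). Capitals mark matches, on both strands, to GAAA, any 2 bases and GAAA, the interferon-stimulated response element, and to AA, any 2 bases and GAAA, the core that interferon regulatory factors bind. The core lies within each match of the longer motif.
Xaf1: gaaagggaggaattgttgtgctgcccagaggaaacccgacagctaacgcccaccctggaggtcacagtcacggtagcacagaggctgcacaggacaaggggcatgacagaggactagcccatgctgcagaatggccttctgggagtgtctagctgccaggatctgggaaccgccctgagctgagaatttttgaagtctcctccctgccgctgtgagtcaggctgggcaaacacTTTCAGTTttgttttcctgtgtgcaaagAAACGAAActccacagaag
Oas1g: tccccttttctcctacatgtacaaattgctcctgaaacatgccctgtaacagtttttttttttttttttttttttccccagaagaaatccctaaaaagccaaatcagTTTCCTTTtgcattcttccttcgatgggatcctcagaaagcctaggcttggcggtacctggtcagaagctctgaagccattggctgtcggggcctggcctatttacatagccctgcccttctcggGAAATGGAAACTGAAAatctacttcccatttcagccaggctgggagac
Herc6: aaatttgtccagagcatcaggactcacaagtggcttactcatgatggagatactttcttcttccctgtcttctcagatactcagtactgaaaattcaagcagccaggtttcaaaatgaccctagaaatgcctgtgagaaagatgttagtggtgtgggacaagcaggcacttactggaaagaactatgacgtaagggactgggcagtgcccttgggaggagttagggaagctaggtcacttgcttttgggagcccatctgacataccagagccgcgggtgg
Oas1g held 2 overlapping matches to the longer motif from 18 bases before its start, Xaf1 held the core once on each strand close to its start, and neither motif occurred in these letters of Herc6. Of 32851 windows of the same length in the table, 3.28% held the longer motif and 23.1% the core. Entries were found for 31 of the 45 genes, too few to give a share for the list.

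Genes of the other activation programmes stood between the BSA libraries. The followed genes were the costimulatory ligands Cd40, Cd80 and Cd86, the maturation marker Cd83, the migration receptor Ccr7, the cytokines Il12b and Il15, the inhibitory ligand Cd274 and the chemokines Cxcl9 and Cxcl10. All 10 were higher in BSA replicate 1 than in BSA replicate 3, by 1.55 to 6.00 times, and in 7 of the 10 both OVA libraries lay between them. Ccr7 was 2409 and 640 CPM after BSA and 1986 and 1299 CPM after OVA (log2 difference 0.14 ± 0.56). Cd40 was 835 and 414 CPM after BSA and 660 and 686 CPM after OVA (0.16 ± 0.40). Cd86 was 98.7 and 34.2 CPM after BSA and 81.5 and 82.6 CPM after OVA (0.39 ± 0.47). For these 3 genes the groups overlapped in full.

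Chemokines and cytokines of the followed genes are given next. Cxcl9, a ligand of CXCR3 that interferon-gamma induces, was 680 and 113 CPM after BSA and 312 and 418 CPM after OVA. Cxcl10, a ligand of the same receptor, was 5283 and 1842 CPM after BSA and 4949 and 5984 CPM after OVA. Il12b, the shared chain of interleukin-12 and interleukin-23, was 60.5 and 15.3 CPM after BSA and 44.9 and 11.3 CPM after OVA, and Il15 173 and 80.2 against 172 and 134 CPM. The sign of the difference depended on which BSA library was kept for Cd40, Cd80, Cd86, Cd83, Ccr7, Il15 and Cd274, which were above 0 without BSA replicate 1 and below 0 without BSA replicate 3, while Il12b and Cxcl9 turned from below to above 0 without BSA replicate 1. Over the 22 tested genes that interferon-gamma induces, the median log2 difference was 0.25, and 1.23 and -0.36 without BSA replicates 1 and 3. Over the 25 genes of maturation and migration it was 0.24, and 0.92 and -0.28 without them, and over the 22 genes of the CD40 and NF-kB response 0.10, and 0.78 and -0.34. Of these 3 lists 2, 1 and 2 members were higher without overlap (9.09%, 4.00% and 9.09%, beside 16.1% of all genes), and none was called.

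Members of presentation on MHC class II were mostly lower after OVA. Of 16 genes tested 10 (62.5%) were lower without overlap, beside 19.8% of all genes, and none was higher without overlap. At an unadjusted p under 0.05 5 were lower, where 4.8% of all genes were. None was called with all libraries. The median log2 difference was -0.39, and -0.42 and -0.31 without BSA replicates 1 and 3. H2-Ab1, the beta chain of the molecule, was 4877 and 6926 CPM after BSA and 2714 and 3028 CPM after OVA (-0.95 ± 0.32, adjusted p = 0.46). Ciita, the transactivator of these genes, was 110 and 119 CPM after BSA and 50.3 and 66.4 CPM after OVA (-0.90 ± 0.31). H2-DMb1, a chain of the peptide exchange factor, was 186 and 547 CPM after BSA and 120 and 150 CPM after OVA, and so rested more on BSA replicate 3. Ctss and Lgmn, proteases that cut antigen and the invariant chain, were at 1890 and 1944 against 2369 and 1750 CPM and at 205 and 154 against 175 and 165 CPM, and overlapped. The level of H2-Ab1 was 1432 and 2368 CPM without OT cells, below all libraries with them, and 4793 and 5287 CPM in the knockout. Among the 15 tested cathepsins and lysosomal proteases Ctse was the 1 called, and their median was -0.08. Without BSA replicate 1 the median was 0.22, and without BSA replicate 3 it was -0.02.

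Further lists held members on the same side. Of 19 tested genes of cholesterol synthesis and transport 12 (63.2%) were lower without overlap, beside 19.8% of all genes, and none was higher without overlap, with a median log2 difference of -0.50, or -0.01 and -0.53 without BSA replicates 1 and 3. Srebf2, the factor that drives the pathway, was 85.9 and 83.7 CPM after BSA and 40.4 and 33.8 CPM after OVA (-1.10 ± 0.27, adjusted p = 0.45), with closely agreeing libraries in each group. Mvk, which phosphorylates mevalonate, was 25.5 and 27.1 CPM after BSA and 14.5 and 12.5 CPM after OVA. Srebf2 was also low without OT cells, at 24.7 and 25.7 CPM, and in the knockout, at 24.7 and 22.4 CPM.

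Of 21 tested cell cycle genes 8 (38.1%) were higher and 3 (14.3%) lower without overlap, beside 16.1% and 19.8% of all genes. The median was 0.20, and 0.77 and 0.55 without BSA replicates 1 and 3. Birc5, a protein of the dividing chromosome, was 11.1 and 10.6 CPM after BSA and 36.6 and 32.6 CPM after OVA (1.75 ± 0.56), and Stmn1, a regulator of microtubules, 22.3 and 22.4 against 48.7 and 47.6 CPM. Pcna and Mcm7, of DNA replication, were at 95.5 and 112 against 84.5 and 55.1 CPM and at 31.8 and 43.6 against 26.7 and 20.0 CPM, on the other side. None of the cell cycle genes was called. Among 43 subunits of oxidative phosphorylation 12 (27.9%) were higher and 4 (9.30%) lower without overlap, beside the same 16.1% and 19.8%. Their median was 0.18, and 0.29 and 0.09 without BSA replicates 1 and 3. Of 20 tested immediate early genes 4 (20.0%) were lower without overlap, beside 19.8% of all genes, and of 15 nucleic acid sensors 8 (53.3%) were higher without overlap, beside 16.1%. The median of the sensors was 0.33, and 0.59 and 0.21 without BSA replicates 1 and 3. The sensors Ifih1, Ddx58, Dhx58, Zbp1 and Irf7 are also members of the list of interferon-stimulated genes, so the 2 lists are not separate. Tlr9 did not pass the filter on low counts.

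**Figure D5:**
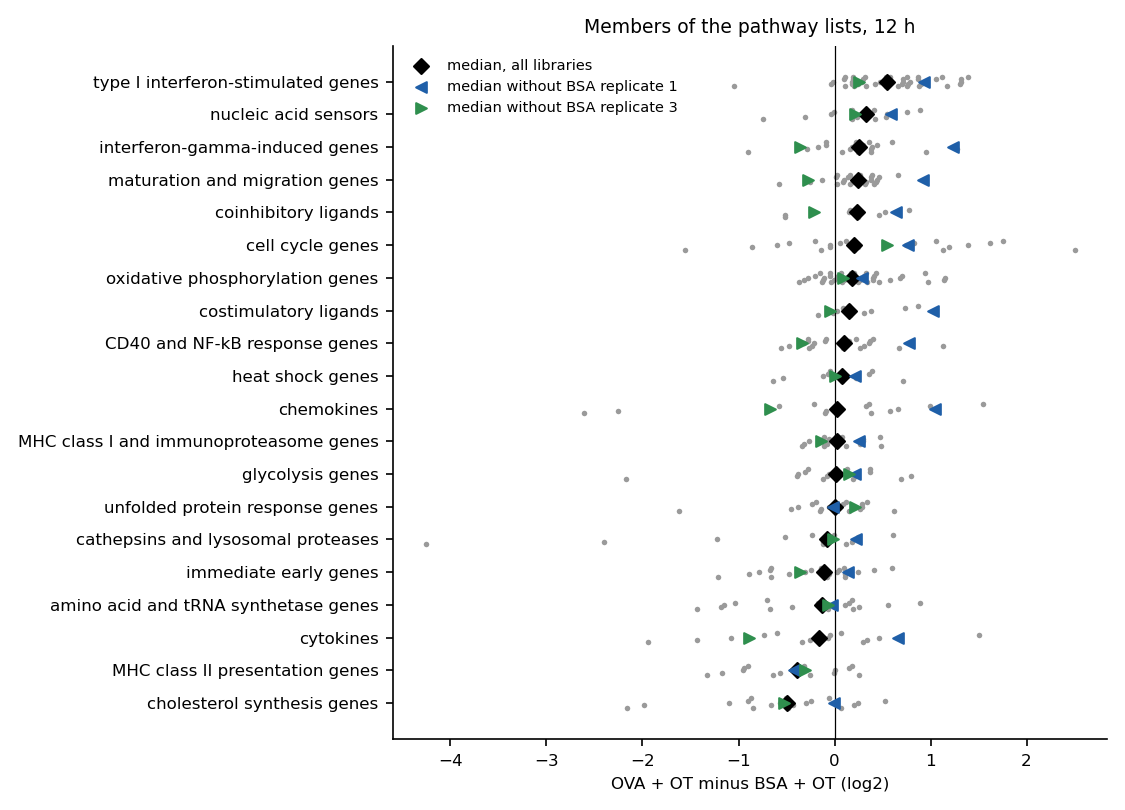
Log2 difference between OVA with OT and BSA with OT (horizontal axis) of each tested member (grey) of 20 pathway lists, with the median over all libraries (black) and without BSA replicate 1 (blue) or 3 (green). The medians of type I interferon-stimulated genes (0.93 and 0.26) and MHC class II genes (-0.42 and -0.31) keep their sign, and those of interferon-gamma-induced genes (1.23 and -0.36) do not.

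Subset markers of DC differed in how far they depended on BSA replicate 3. Siglech was 20.7 and 799 CPM after BSA and 39.6 and 15.0 CPM after OVA. The fitted difference of -3.72 ± 1.09 (adjusted p = 0.45, edgeR) therefore came from 1 library, and it was -4.59 without BSA replicate 1 and 0.45 without BSA replicate 3. Ly6d and Cox6a2, of the same cells, were 12.7 and 1223 CPM and 3.18 and 605 CPM after BSA, and 33.5 and 32.6 CPM and 14.5 and 18.8 CPM after OVA. The median over the 24 plasmacytoid DC markers was -2.42, and -3.23 and 0.48 without BSA replicates 1 and 3. For Ly6d and Cox6a2 both OVA libraries lay between the BSA libraries, and for Siglech OVA replicate 2 lay below both. Siglech was 284 and 587 CPM without OT cells and 382 and 397 CPM in the knockout, and at most 16.3 CPM in the other 25 DC libraries.

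Type 1 and type 2 conventional DC markers were lower in part. Of 15 type 1 markers 7 were lower without overlap (46.7%, beside 19.8% of all genes) and none higher without overlap, with a median of -0.37, and -0.70 and -0.41 without BSA replicates 1 and 3. Irf8, a factor of type 1 and plasmacytoid DC, was 816 and 1722 CPM after BSA and 573 and 558 CPM after OVA, and Cadm1, an adhesion molecule of type 1 DC, 57.3 and 40.1 against 17.5 and 22.5 CPM. The defining receptor Xcr1 was 27.1 and 10.6 against 17.5 and 26.3 CPM and overlapped. Of 12 tested type 2 markers 8 (66.7%) were lower and 2 (16.7%) higher without overlap, beside 19.8% and 16.1% of all genes. The median was -1.23, and -0.71 and -0.37 without BSA replicates 1 and 3. Mgl2 and Cd209a, given above, belong to this list. Clec10a, a lectin close to Mgl2 in sequence, was 30.2 and 236 CPM after BSA and 28.2 and 21.3 CPM after OVA.

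Neutrophil markers summed to 5664 and 7396 CPM after BSA and 9017 and 9427 CPM after OVA. Of 15 tested 6 (40.0%) were higher and 1 (6.67%) lower without overlap, beside 16.1% and 19.8% of all genes, and the median was 0.31, and 0.09 and 0.91 without BSA replicates 1 and 3. S100a8, a calcium-binding protein of neutrophils and monocytes, was 1817 and 789 CPM after BSA and 2661 and 3587 CPM after OVA. The granule genes Camp and Ltf, also defining markers, were 68.4 and 836 CPM and 46.1 and 457 CPM after BSA, and 254 and 37.6 CPM and 127 and 31.3 CPM after OVA, and so overlapped. Monocyte and macrophage markers summed to 4285 and 7120 CPM after BSA and 5691 and 5892 CPM after OVA. Of the 18 tested, 8 had a difference above 0 and 10 below. Without overlap 6 (33.3%) were higher and 2 (11.1%) lower, beside the same 16.1% and 19.8%. Their median was -0.10, and 0.27 and 0.44 without BSA replicates 1 and 3. Ccr2, the monocyte chemokine receptor, was 213 and 421 CPM after BSA and 570 and 506 CPM after OVA. In the authors' deposited table the defining markers Lyz2, Csf1r, C1qa and Ly6c2 had log2 fold changes of 0.42, 0.07, -0.10 and -0.31. The part of these cells in the higher Mmp8, Il1r2 and F13a1 was not tested.

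A pair of independent comparisons in other libraries ask for the effect of OVA. Their labels do not say whether the mice held OT cells. The series also holds OT T cell libraries after OVA and BSA particles at 20 h. Among 9159 genes OVA and BSA particles at 20 h, with 5 libraries each, gave no called gene (0%), 561 at an unadjusted p under 0.05 (6.13%) and 5 by DESeq2 of 1531 with an adjusted p (0.327%). Xaf1 was 18.1 CPM at the lowest, 52.5 at the median and 114 at the highest after BSA and 60.0, 105 and 120 CPM after OVA, overlapping groups with a log2 difference of 0.65 ± 0.32 (SE, adjusted p = 0.80). The 45 interferon-stimulated genes had a median of 0.75 there, with none called. OVA against CpG-only particles at 12 h gave 232 called genes of 9428 (2.46%), 71 higher (0.753%) and 161 lower (1.71%). Xaf1 was 222 and 170 CPM after CpG only and 347 and 313 CPM after OVA (0.76 ± 0.21, adjusted p = 0.069), and 12 of the 45 interferon-stimulated genes were called higher, with a median of 0.74. Genes of maturation had a median of -1.53 there and 17 of 25 called lower, beside 0.24 and none in the main comparison. The medians of the interferon-stimulated genes were above 0 in all 3 comparisons, and the differences between comparisons were not tested. Across genes the log2 differences of the main comparison hardly correlated with those of the others. Pearson r was 0.01 with OVA against BSA at 20 h (8434 genes) and -0.05 with OVA against CpG only at 12 h (8666 genes). Of the 12 named rises 6 were tested at 20 h and 3 were higher. Against CpG only 10 were tested and 5 were higher.

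The authors' deposited table gives its own adjusted p for this comparison, and 7 of 15748 genes with a value (0.0445%) were under 0.05, all lower after OVA. In the authors' deposited table these are Mgl2 (log2 fold change -3.78), Ctse (-3.20), Cd209e, Ly6g5b, Cxcr6, Lat and Il2rb. The authors' deposited table thus shares 3 genes with the 11 called by DESeq2 here, Ctse, Mgl2 and Il2rb. Cxcr6, a chemokine receptor of activated lymphocytes, was 6.37 and 23.6 CPM after BSA and 0.762 and 0 CPM after OVA (1 and 0 counts). Ly6g5b, of the Ly6 family of surface proteins, had 5 and 16 counts after BSA and 0 in both OVA libraries, at least 10.0-fold lower. Cd209e, a lectin next of kin to Cd209a, had 3 and 17 counts after BSA and 0 after OVA, at least 9.53-fold lower, and did not pass the filter on low counts here.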

How the data were processed

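RNA of sorted lymph node DC was sequenced from captured polyA RNA. The authors deposited raw counts per gene of 24421 genes for the 12 h experiment and the time course and 24411 for the 20 h experiment. The submitters' processing notes name bcl2fastq for demultiplexing. By the same notes reads were aligned with HISAT 0.1.6 to mm9 and summed over exons with HOMER, and how reads of near-identical genes were assigned is not given in the sources used here. Per the file headers the same tables hold the authors' log2 fold changes and adjusted p-values. In the table of the 20 h experiment, 4 columns with NOgraft in their headers match no label and were not used. The labels of the other libraries there do not say whether the mice were engrafted.

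Counts were tested with edgeR 4.0.16 (quasi-likelihood, TMM, filterByExpr by group, all libraries of an experiment in the fit) and p-values adjusted by Benjamini-Hochberg over all genes tested, with calls under 0.05. SE is the log2 difference divided by the root of F. DESeq2 1.42.0, its size factors, other filters, fewer libraries and each library left out were alternatives. The work ran under R 4.3.3 and Python 3.11.15 (numpy 2.4.6, pandas 2.3.3) with figures by matplotlib 3.10.9, and the tests were tried on simulated data. The members and the 34 gene lists were chosen with earlier results of these data known.

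Named genes are the 12 largest rises and falls among calls whose libraries do not overlap and whose mean reaches 10 CPM, without unclear gene models, completed to 12 by the smallest p, up to 4 members of each list, and 13 followed genes. Other list members are examples.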

Additional observations from a re-analysis of the deposited data

How the results depend on the processing

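The count of called genes at 12 h, 1 with edgeR and all libraries, was 11 with DESeq2, 227 (52 higher, 175 lower) with no filter on low counts, 4 with only the 4 libraries compared and 2 with only the 6 wild-type libraries. It remained 1 with the size factors of DESeq2 and with a mean of at least 1 CPM. Leaving out each library in turn gave 0 to 200 calls, 0 without either OVA library, and the lone library left in a group is then assumed to vary like the other groups. The log2 difference of Ctse ranged from -4.36 to -4.05 over all alternatives. Over the 35 named or followed genes and 10 alternatives 279 of 348 values kept their direction and their side of the threshold, 53 passed the threshold, 2 lost it and 14 changed sign. Those that changed sign did so when a library was left out, with ranges of -4.59 to 0.45 for Siglech, -0.32 to 0.92 for Cd40, -0.70 to 1.39 for Cd80, -0.27 to 1.48 for Cd86, -0.20 to 1.31 for Cd83, -0.56 to 1.57 for Ccr7, -1.61 to 1.17 for Il12b, -0.19 to 1.15 for Il15, -0.21 to 0.64 for Cd274 and -0.90 to 1.91 for Cxcl9. At 20 h DESeq2 called 5 genes and leaving out a library gave 0 to 4. For OVA against CpG only at 12 h leaving out a library gave 24 to 168. No paired analysis was possible for the 12 h comparison because its groups share only replicate number 1, and a replicate block over all 8 libraries would take BSA replicate 3, the 1 library with its number, out of the comparison. With the replicate block 0 genes were called at 20 h and 255 for OVA against CpG only. In these experiments same-numbered libraries correlated at -0.06 to 0.16 and at -0.02. The labels do not say what such libraries share besides the number, and so few correlations cannot settle it. At totals of 628404 to 1312940 counts the levels of Ctse and Mgl2 after OVA rest on 1 to 4 counts a library.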
